A study of Rattus norvegicus with 34 samples.

Results

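The regions described are the tips of 16 rat autosomes, taken as the first 2 megabases (starts) and the last 2 megabases (ends) of chromosomes 1, 3 to 6, 8 to 11 and 13 to 19. Windows of 1 kb were chosen by position alone, with the end of a chromosome set at the last base of its last window. The starts hold 32000 windows and the ends 32000, out of 2782040 windows in the series. The comparison set is the interior of the same 16 chromosomes, with 2033652 windows. Chromosomes 2, 7, 12 and 20 were left out by the rule.

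Sperm of Hsd: Sprague Dawley SD rats, an outbred strain, was profiled by MeDIP-seq, in which an antibody against methylated cytosine enriches methylated DNA before sequencing. Founder (F0) males were injected with ifosfamide, an alkylating chemotherapy drug, at 8.5 mg/kg, or with phosphate-buffered saline at 1.1 mL/kg, on days 26, 29 and 32 of age. The F1 control pools descend from 3 saline-treated F0 males, and the F1 and F2 ifosfamide pools from 5 ifosfamide-treated F0 males, and none of the F1 or F2 animals was itself treated. Each group holds 6 pools of cauda epididymal sperm DNA. An F1 pool mixes 3 to 4 males and an F2 ifosfamide pool 8 to 9, so each value is an average over several animals. The p-values measure the spread between pools, not between animals. For single windows that spread is borrowed in large part from other windows. F2 ifosfamide pools were set against F1 control pools, so generation and lineage differ together in that comparison and cannot be told apart. The F1 and F2 comparisons use the same 6 control pools and are not independent.

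Chromosome tips end in telomeres, tandem repeats that cap the DNA molecule, and next to them lie subtelomeric regions, which often hold duplicated segments. Satellite repeats near centromeres are heavily methylated in somatic cells of mice and less so in sperm. Many rat autosomes carry their centromere at or near the start, so that the start and the end of a chromosome do not border the same kind of sequence. Repeats that an assembly lacks, or to which reads cannot be placed uniquely, give windows without counts whatever their methylation.

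Total window counts were 23336048 to 39440265 per library, and 9.72 to 13.5% of all windows in a library were empty (0 counts). The F1 ifosfamide group was sequenced more deeply than the F1 control group, with a median total of 33673203 against 25980417.5. Per read, 1.16 to 1.25 windows received a count, which means that reads are shared between neighbours. Signal is given as CPM per 1 kb window, the window's count scaled so that the window counts of every library have the same usual CPM total. It rises with methylation, with the density of methylatable sites and with copy number. An annotation and a sequence of the Rnor_6.0 build were not used here, so windows are given by position without gene names, and the labelled cell type was not checked against marker genes.

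Chromosome tips carried less MeDIP signal than the interior in control sperm. At starts the F1 control signal ranged from 0.307 to 0.314 CPM with a median of 0.311 over the 6 pools. At ends it ranged from 0.296 to 0.307 CPM with a median of 0.300. In the interior all 6 pools lay between 0.3726 and 0.3732 CPM. No pool's start or end value reached its interior value. Starts held 83.4% ± 0.834 (SD, n = 6) of the interior signal, a log2 ratio of -0.26 ± 0.014. Ends held 80.7% ± 1.30, a log2 ratio of -0.31 ± 0.023. Each ratio was below 0 in 6 of 6 pools (exact two-sided sign-flip test, p = 0.03125, adjusted p = 0.03125 over 6 tests, the smallest p that 6 pools can give). Starts were higher than ends in 6 of 6 pools by 0.047 ± 0.022 on the log2 scale (exact sign-flip test, p = 0.03125). Without the 0.1% of windows with the highest totals the difference was 0.029. That order turned with a 4 Mb limit, where starts fell below ends by 0.11 on the log2 scale. With a 1 Mb limit the difference widened to 0.24. It was not common to all chromosomes, as the start was higher than the end on 8 and lower on 8. The median window was lower at starts (0.155 CPM) than at ends (0.164 CPM).

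Empty windows were more frequent at the tips. In control pools 16.98 to 20.8% of start windows had 0 counts, with a median of 18.3%. At ends the share was 13.0 to 16.6% with a median of 14.4%, and in the interior 9.08 to 12.0% with a median of 10.1%. In every pool the starts had the most empty windows and the interior the fewest. Starts exceeded the interior by 8.31 ± 0.434 percentage points (SD, n = 6), ends exceeded it by 4.31 ± 0.349, and starts exceeded ends by 4.00 ± 0.110 (exact sign-flip tests, p = 0.03125 each). Thinning every library to the smallest total left these differences at 8.68, 4.75 and 3.93 percentage points. Windows at 0 in all 18 libraries made up 9.53% of starts (3049 windows), 5.96% of ends (1907) and 4.22% of the interior (85736).

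Setting windows without counts aside made the differences in signal to the interior smaller. Over windows with a count in any of the 18 libraries, the starts lay 0.18 and the ends 0.28 below the interior on the log2 scale. The difference between starts and ends grew to 0.10. The median window was at 0.155 CPM at starts, 0.164 CPM at ends and 0.229 CPM in the interior, over all windows. Signal at the tips was also more concentrated. The highest 10% of windows held 47.0% of the signal at starts, 44.1% at ends and 39.0% in the interior. Of start windows, 1.23% lay above the 99th percentile of the interior, although only 7.77% lay above its 90th percentile. At ends these shares were 0.953% and 6.74%.

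The profile along the tips showed where the difference lay. In the outermost 100 kb of the starts the mean control signal was 0.438 ± 0.018 CPM (SD, n = 6), above the interior mean, although 27.1% of windows there were empty. The median window of that bin was at 0.123 CPM. Windows of chromosome 3 starting at 41001 and 42001 averaged 142 and 37.8 CPM there. Those starting at 32001 and 33001 averaged 29.2 and 31.5 CPM. The mean of the bin is thus weighted toward 1 chromosome and does not describe the starts in general. From 100 to 200 kb it was 0.283 ± 0.0080 CPM. At ends the outermost 500 kb averaged 0.284 ± 0.0086 CPM and the next 500 kb 0.260 ± 0.0041 CPM, the lowest of the 500 kb bins. The 2 Mb limit fell on no step in signal at the ends, where the bins just inside and just outside it held 0.373 and 0.378 CPM. At starts these bins held 0.327 and 0.270 CPM. Farther inward the sides parted. From 2 to 4 Mb the signal was 0.345 ± 0.0019 CPM behind the starts and 0.405 ± 0.0037 CPM before the ends. It reached 0.496 ± 0.0077 CPM 6 to 8 Mb from the ends and 0.417 ± 0.0065 CPM 10 to 12 Mb from the starts, the highest 2 Mb bins within 30 Mb of either tip.

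**Figure D1:**
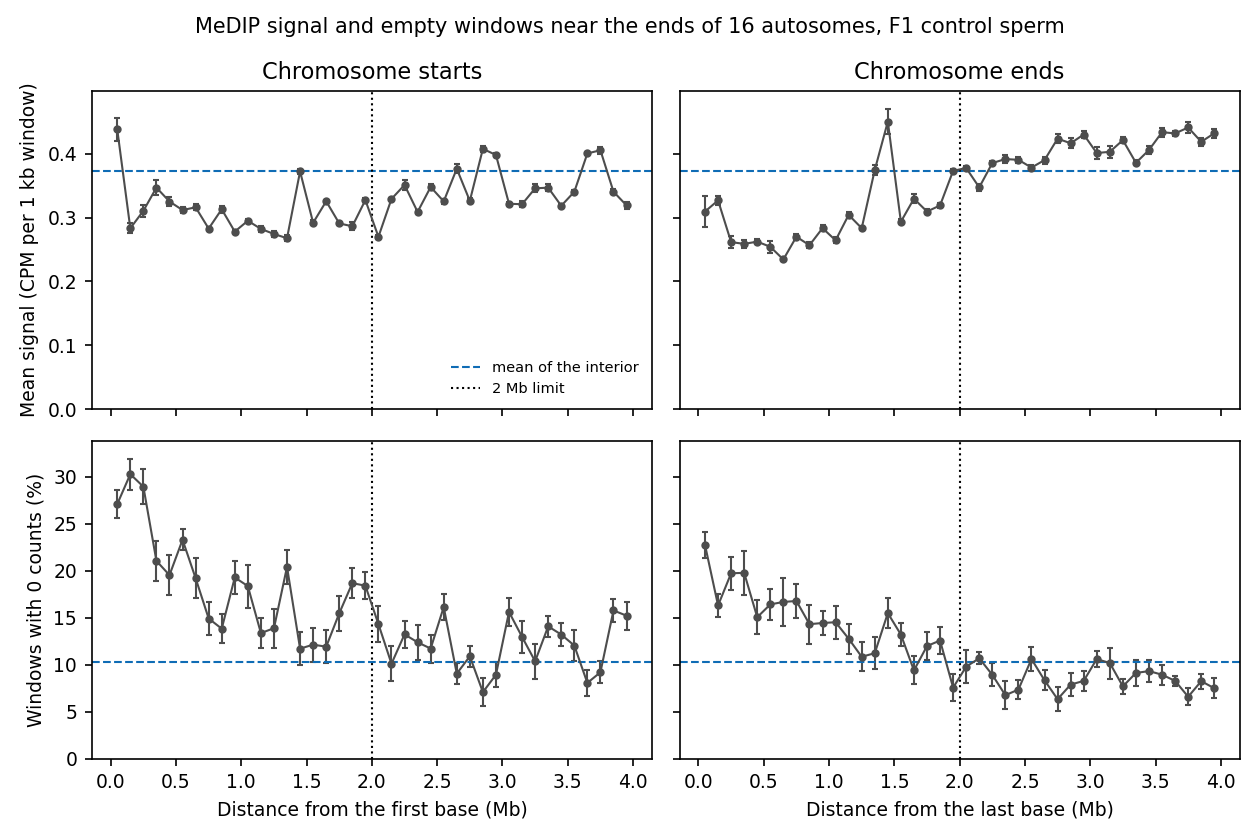
Mean MeDIP signal (CPM per 1 kb window, upper panels) and share of windows with 0 counts (percent, lower panels) in 100 kb bins over the first and last 4 Mb of 16 autosomes, as mean ± SD of 6 F1 control pools, with the interior mean (dashed) and the 2 Mb limit (dotted). The outermost start bin stands at 0.438 CPM with 27.1% empty windows and a median window at 0.123 CPM. It holds the very high windows of chromosome 3. The end bins rise inward past the interior mean.

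The tips differed far more between chromosomes than between pools. Mean signal was below the interior of the same chromosome at 13 of 16 starts and 14 of 16 ends, and empty windows were more frequent than in the interior at 14 starts and 14 ends. The log2 ratio to the interior varied with an SD of 0.42 over the 16 starts and 0.31 over the 16 ends, whereas the median SD over control pools was 0.029 and 0.034. The start was higher than the end of the same chromosome on 8 chromosomes and lower on 8. By the median window, 14 starts and 15 ends lay below their interior, so a few high windows carried some tips above it.

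The starts with the highest signal were those of chromosomes 3, 6 and 19. The start of chromosome 3 ranged from 0.446 to 0.482 CPM over the control pools with a median of 0.469, which was 132% of its interior. A single window held 15.3% of that signal and 10 windows held 29.1%. The start of chromosome 6 ranged from 0.457 to 0.471 CPM (median 0.465), also 132% of its interior. Its highest window held 0.980% of the signal, and 6.23% of its windows were empty against 10.6% in its interior, so the high level there was spread over many windows. The start of chromosome 19 ranged from 0.412 to 0.457 CPM (median 0.421). Its mean of 0.428 CPM was below its interior of 0.452 CPM, the highest interior of the 16 chromosomes. The control pool with the highest log2 ratio to the interior lay above it, at 0.020. The pools of chromosomes 3 and 6 overlapped each other, and those of chromosome 19 reached into the lower part of chromosome 3.

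The lowest starts were those of chromosomes 13 and 14. The start of chromosome 13 ranged from 0.146 to 0.159 CPM (median 0.155), 41.1% of its interior, with 34.5% of windows empty. The start of chromosome 14 ranged from 0.209 to 0.223 CPM (median 0.219), 57.5% of its interior, with 35.9% of windows empty. Every control pool of chromosome 13 lay below every pool of chromosome 14.

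Among ends, chromosomes 5, 17 and 3 were highest. The end of chromosome 5 ranged from 0.441 to 0.474 CPM (median 0.462), 129% of its interior, and had the fewest empty windows of all tips, 5.96%. The end of chromosome 17 ranged from 0.414 to 0.473 CPM (median 0.457), 120% of its interior, and 10 windows held 18.4% of it. The end of chromosome 3 ranged from 0.323 to 0.338 CPM (median 0.335) and was below its interior. Pools of chromosomes 5 and 17 overlapped, and both stood above every pool of chromosome 3. The lowest ends were those of chromosome 15, at 0.205 to 0.229 CPM (median 0.211), and chromosome 16, at 0.222 to 0.255 CPM (median 0.238). Their pools overlapped.

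**Figure D2:**
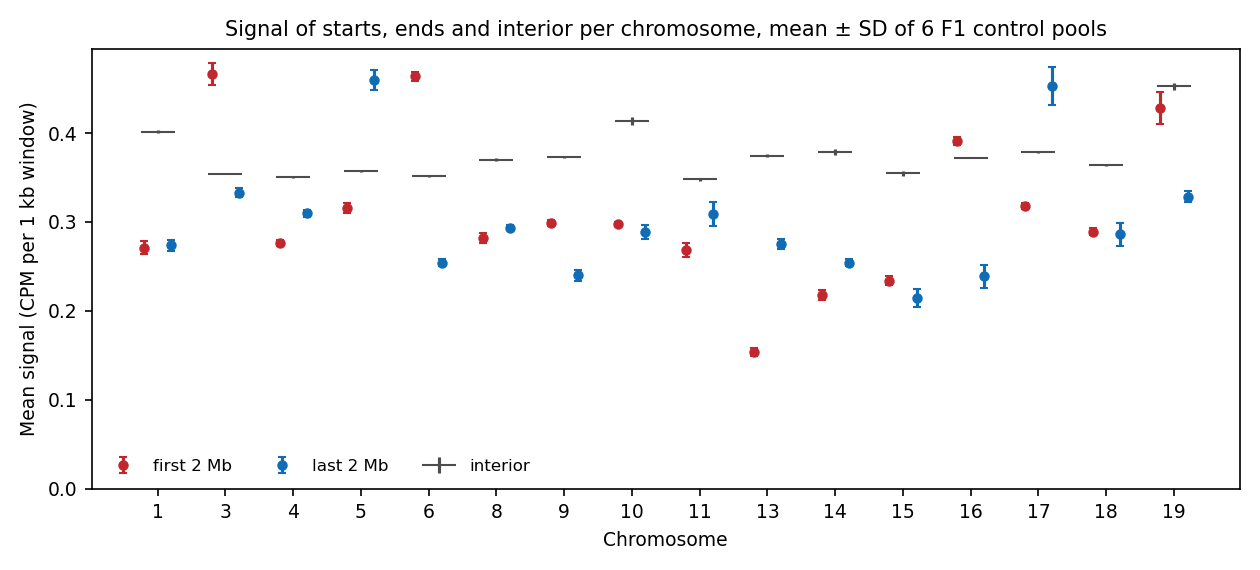
Mean MeDIP signal (CPM per 1 kb window) of the first 2 Mb, the last 2 Mb and the interior of each of 16 autosomes, as mean ± SD of 6 F1 control pools. Starts run from 0.154 CPM on chromosome 13 to 0.466 on chromosome 3, and ends from 0.215 on chromosome 15 to 0.460 on chromosome 5.

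Runs of windows without a count in any of the 18 libraries marked several starts. The longest ran over 149 windows on chromosome 1 at 952001 to 1101000 and over 149 windows on chromosome 18 at 48001 to 197000. Chromosome 14 had a run of 114 windows at 1798001 to 1912000, and chromosome 17 one of 96 windows at 142001 to 238000. On chromosome 15 a run of 95 windows at 1905001 to 2000000 reached the 2 Mb limit. Runs of at least 50 windows occurred at 6 starts and at 1 end, that of chromosome 9, with 80 windows at 120561001 to 120641000. Whether these stretches are gaps of the assembly was not tested.

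The highest windows at the tips stood far above their surroundings. The highest at starts was on chromosome 3 at 41001 to 42000, where control pools ranged from 116 to 153 CPM with a median of 151. F1 ifosfamide pools ranged from 125 to 197 CPM (median 172) and F2 ifosfamide pools from 108 to 152 CPM (median 117). The groups overlapped, and the window was called in neither comparison. The adjoining window at 42001 to 43000 held 27.0 to 46.5 CPM in control pools (median 37.9), and a window on chromosome 9 at 1403001 to 1404000 held 25.6 to 39.9 CPM (median 34.9). The highest at ends was the very last window of chromosome 11, at 90463001 to 90464000. It held 39.0 to 80.2 CPM in control pools (median 51.3), while its only neighbour averaged 0.126 CPM. The next were a window on chromosome 17 at 89395001 to 89396000, with 25.3 to 37.0 CPM (median 31.8), and one on chromosome 15 at 110715001 to 110716000, with 20.0 to 35.0 CPM (median 24.5). The outermost windows of the other tips were not of this kind. The remaining 15 outermost end windows averaged at most 0.256 CPM, and the 16 outermost start windows at most 1.98 CPM.

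The next question was whether the tips of ifosfamide-lineage sperm shifted relative to the interior. At starts they did not do so beyond the spread between pools. The log2 ratio of start to interior signal ranged from -0.28 to -0.25 in F1 control pools (median -0.26), from -0.29 to -0.24 in F1 ifosfamide pools (median -0.25) and from -0.27 to -0.25 in F2 ifosfamide pools (median -0.26). The groups overlapped. F1 ifosfamide minus control was 0.0065 (exact two-sided permutation test over 924 divisions, p = 0.5, adjusted p = 0.633 over 8 tests), and F2 ifosfamide minus control was 0.0041 (exact permutation p = 0.554, adjusted p = 0.633).

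At ends the log2 ratio ranged from -0.33 to -0.28 in F1 control pools (median -0.31) and from -0.35 to -0.33 in F1 ifosfamide pools (median -0.34). In F2 ifosfamide pools it ranged from -0.31 to -0.30 (median -0.31). All 6 F1 ifosfamide pools lay below the control mean, but control pools 1 and 5 lay among them. The F1 difference was -0.028 (exact permutation p = 0.0216, adjusted p = 0.0866), and it did not pass the threshold. Without control pool 1 it was -0.032 (adjusted p = 0.0433) and without control pool 5 it was -0.033 (adjusted p = 0.0346). Whether it passed thus depended on single control pools. The adjusted p ran from 0.0346 to 0.329 over the alternatives. Leaving out the 0.1% of windows with the highest totals reduced the difference to -0.017, and a 4 Mb limit reduced it to -0.011. F2 ifosfamide minus control was 0.00068 (exact permutation p = 0.929, adjusted p = 0.929). Set directly against each other in a test added after the values were seen, F2 ifosfamide ends exceeded F1 ifosfamide ends by 0.029, with no overlap between their pools (exact permutation p = 0.0021645, the smallest that 6 against 6 pools can give, adjusted p = 0.00866 over 4 tests). That test was not repeated under the alternatives, where the 2 groups came closer together. Without the 0.1% of windows with the highest totals, the F2 and F1 differences from control were 0.0026 and -0.017. With a 4 Mb limit they were -0.0045 and -0.011.

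**Figure D3:**
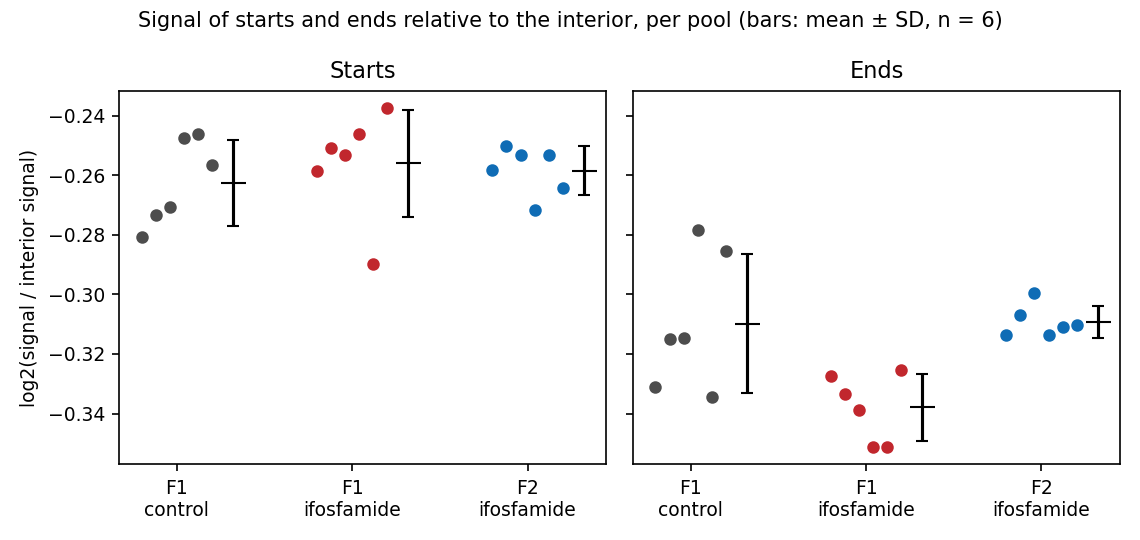
Log2 ratio of start (left) and end (right) signal to interior signal for each of the 18 pools, with mean ± SD of 6 pools per group. At ends the F1 ifosfamide pools lie at -0.35 to -0.33 and overlap control pools 1 and 5, while the F2 ifosfamide pools lie at -0.31 to -0.30.

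The excess of empty windows over the interior had its lowest median at ends in F1 ifosfamide pools. There it was 3.96 to 4.73 percentage points in control pools (median 4.28), 3.58 to 4.03 in F1 ifosfamide pools (median 3.82) and 3.70 to 4.57 in F2 ifosfamide pools (median 4.22). The F1 difference was -0.50 percentage points (exact permutation p = 0.00866, adjusted p = 0.0693), which did not pass. It moved with depth: with all libraries thinned to the smallest total it was -0.031 percentage points (adjusted p = 0.929). Without control pool 1, 2, 3 or 5 it passed, at -0.46, -0.57, -0.57 and -0.55 percentage points, with adjusted p from 0.0346 to 0.929 over all alternatives. At starts the F1 difference was -0.48 percentage points (exact permutation p = 0.0368, adjusted p = 0.0981), and -0.13 after thinning. For F2 ifosfamide the differences were -0.27 at starts (adjusted p = 0.489) and -0.14 at ends (adjusted p = 0.633, exact permutation tests).

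No single start or end passed among 64 tests. The smallest p that an exact permutation test of 6 against 6 pools can give is 0.0021645. With a lone tip at that p the adjusted p is 0.139, so these tests could not call a single tip by itself. Shifts of the 16 starts ran from -0.050 to 0.068 in F1 on the log2 scale (8 below and 8 above 0), and from -0.022 to 0.044 in F2 (4 below, 12 above). Shifts of the 16 ends ran from -0.074 to 0.0079 in F1 (15 below, 1 above) and from -0.035 to 0.059 in F2 (7 below, 9 above). The lowest p in F1 belonged to the end of chromosome 14. Its log2 ratio to the interior was -0.59 to -0.55 in control pools (median -0.58) and -0.63 to -0.59 in F1 ifosfamide pools (median -0.61), a shift of -0.029 with no overlap (exact permutation p = 0.0021645, adjusted p = 0.139). The next was the start of chromosome 16, with a shift of -0.050 (exact permutation p = 0.00649, adjusted p = 0.208). In F2 the lowest p belonged to the end of chromosome 3, with a shift of -0.035 (exact permutation p = 0.0108, adjusted p = 0.231), and the end of chromosome 8, with -0.022 (exact permutation p = 0.0216, adjusted p = 0.277). Pools of both groups overlapped at these 3 tips.

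Single windows were tested with edgeR's quasi-likelihood test over all windows with enough counts, and a window is called at a Benjamini-Hochberg adjusted p below 0.05. In F1, 9389 of 32000 start windows and 9193 of 32000 end windows had enough counts to be tested. Called were 9 at starts (0.0959% of those tested) and 14 at ends (0.152%), against 0.0584% of all 1043656 windows tested. In the interior 419 of 801575 were called (0.0523%). All 23 called tip windows were lower in F1 ifosfamide, a direction in which 0.0535% of all tested windows were called, against 0.00489% higher. At an unadjusted p below 1e-04 there were 12 start windows (0.128%) and 21 end windows (0.228%), all lower, against 0.103% of all windows. The median log2 fold change was 0.01 over tested start windows and -0.01 over tested end windows, against 0.00 over all windows. DESeq2's Wald test called 6 and 11 (0.0639% and 0.120%), against 0.0336% of all windows. Windows per read as a covariate gave 6 and 10 (0.0639% and 0.109%), with 1 of the 10 higher, against 0.0522% of all windows. The authors' deposited table holds 4 start (0.0451%) and 6 end windows (0.0693%) at an adjusted p below 0.05, all lower, against 0.0225% of all its windows.

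These counts moved with single pools, together with the number of calls over all windows. On leaving out control pools 1, 3, 4 and 6 in turn, starts had 24, 5, 2 and 4 called windows, and on leaving out F1 ifosfamide pools 1, 3, 4 and 6 they had 18, 3, 15 and 4. On leaving out control pools 1, 2, 3, 4 and 6 in turn, ends had 40, 9, 8, 4 and 4, and on leaving out F1 ifosfamide pools 1, 3 and 6 they had 35, 4 and 9. The share called over all windows ran from 0.0131% without F1 ifosfamide pool 3 to 0.178% without control pool 1. Starts stood at 0.0294% and ends at 0.0396% in the first of these settings, and at 0.235% and 0.397% in the second. Without control pool 4 they stood at 0.0195% and 0.0395%, against 0.0143% of all windows. F1 ifosfamide pools 1 and 2 resembled each other closely. Counting them as 1 sample gave 10 and 14 (0.102% and 0.145%), against 0.0678% of all windows.

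The strongest window at starts lay on chromosome 14 at 140001 to 141000. Control pools ranged from 2.90 to 7.47 CPM (median 4.93), F1 ifosfamide pools from 1.78 to 3.71 CPM (median 2.76) and F2 ifosfamide pools from 3.50 to 6.71 CPM (median 4.78). The log2 fold change in F1 was -0.97 (SE 0.15, adjusted p = 0.000306, edgeR). Control pool 1, the lowest control, lay within the F1 ifosfamide range, and the other 5 control pools lay above it. On chromosome 9 at 115001 to 116000, control pools ranged from 9.76 to 15.7 CPM (median 10.6) and F1 ifosfamide pools from 6.56 to 8.82 CPM (median 7.29), without overlap (log2 fold change -0.71, SE 0.13, adjusted p = 0.00321, edgeR). On chromosome 15 at 472001 to 473000, control pools ranged from 7.21 to 14.1 CPM (median 8.91) and F1 ifosfamide pools from 5.37 to 7.25 CPM (median 5.93), and they met at control pool 1 (log2 fold change -0.71, SE 0.13). The calls on chromosomes 14 and 9 held under all 19 alternatives run, and that on chromosome 15 was lost when control pool 4 was left out (-0.58).

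The other named starts were less stable. On chromosome 8 at 1622001 to 1623000, control pools held 1.33 to 2.73 CPM (median 1.74) and F1 ifosfamide pools 0.531 to 1.33 CPM (median 1.03), without overlap (log2 fold change -0.86, SE 0.17, adjusted p = 0.0115, edgeR). That call ended without control pools 4 and 6 (-0.85 and -0.71) and F1 ifosfamide pools 3 and 6 (-0.74 and -0.82). On chromosome 19 at 891001 to 892000, control pools held 12.9 to 22.8 CPM (median 15.8) and F1 ifosfamide pools 9.68 to 12.9 CPM (median 10.7), with no overlap but little room between them (log2 fold change -0.65, SE 0.13, adjusted p = 0.0122, edgeR). It ended without control pools 4 and 6 (-0.56 and -0.57) and F1 ifosfamide pools 3 and 6 (-0.61 and -0.63), and with a replicate block (-0.63). The control and F1 ifosfamide pools did not overlap in 29 tested start windows (0.309%) and 26 tested end windows (0.283%), close to the 0.321% of all tested windows. Among called windows this was so for 4 of 9 at starts and 0 of 14 at ends, against 141 of 609 over all windows.

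At ends, 3 of the 5 strongest windows lay on chromosome 10. They start at 112120001, 111855001 and 111218001 and held 1667, 1663 and 1740 counts over the 18 libraries. Their left neighbours held 18, 23 and 16 counts and their right neighbours 130, 124 and 114. At 112120001 control pools ranged from 2.00 to 5.74 CPM (median 3.75), F1 ifosfamide pools from 1.31 to 2.12 CPM (median 1.88) and F2 ifosfamide pools from 2.80 to 4.96 CPM (median 3.39). Control pool 1 was the only control pool inside the F1 ifosfamide range. The F1 log2 fold changes were -1.13 (SE 0.16), -1.06 (SE 0.15) and -0.96 (SE 0.15), with adjusted p from 6.04e-05 to 0.000571 by edgeR. The values of the 3 windows lie close together in every group, and whether they share a sequence was not tested.

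The other named ends lay at the tips of chromosomes 16 and 1. On chromosome 16 the window at 90665001 to 90666000, 3 kb from the last base, held 9.49 to 22.0 CPM in control pools (median 13.6), 6.70 to 11.1 CPM in F1 ifosfamide pools (median 8.55) and 12.3 to 18.0 CPM in F2 ifosfamide pools (median 14.6). Its F1 log2 fold change was -0.82 (SE 0.14, adjusted p = 0.00124, edgeR). On chromosome 1 at 282525001 to 282526000, control pools held 15.2 to 30.0 CPM (median 19.5) and F1 ifosfamide pools 10.8 to 16.7 CPM (median 13.6), with control pool 1 among the latter (log2 fold change -0.68, SE 0.14, adjusted p = 0.0123, edgeR). The calls on chromosomes 10 and 16 held under all 19 alternatives. That on chromosome 1 ended without control pools 4 and 6 (-0.57 each) and F1 ifosfamide pools 3 and 6 (-0.62 and -0.65), with a minimum count of 30 (-0.69) and with a replicate block (-0.65). The last window of chromosome 11 and the window at 110715001 on chromosome 15, named above for their height, were called too, with log2 fold changes of -0.69 (SE 0.14) and -0.63 (SE 0.13). Those calls ended without control pools 4 and 6 (-0.58 and -0.59 on chromosome 11, -0.54 and -0.53 on chromosome 15), without F1 ifosfamide pools 3 and 6 (-0.64 and -0.67, and -0.59 and -0.61) and with a replicate block (-0.66 and -0.60), and that on chromosome 15 also with a minimum count of 30 (-0.64).

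Most of these windows shared a shape. Isolated windows are those whose summed count in all 18 libraries is at least 10 times that of either neighbour, a definition taken up after the data were seen. Of the 23 called windows 13 were isolated, 5 of 9 at starts and 8 of 14 at ends. In the interior 62 of the 419 called windows were isolated, all of them lower. Isolated windows were 53 of the 9389 tested at starts, 47 of the 9193 tested at ends and 1897 of the 801575 tested in the interior. Called were 9.43% of the isolated windows at starts, 17.02% at ends and 3.27% in the interior, against 0.0428%, 0.0656% and 0.0446% of the others. A higher share of calls among isolated windows was thus not limited to the tips. Isolated and other windows were not matched for count, which also affects how readily a window is called. Control pool 1 was the lowest control in 13 of these 13 windows and in 20 of all 23 called. The highest of all 18 libraries was control pool 4 or 6 in 12 of the 13 and in 17 of the 23.

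**Figure D4:**
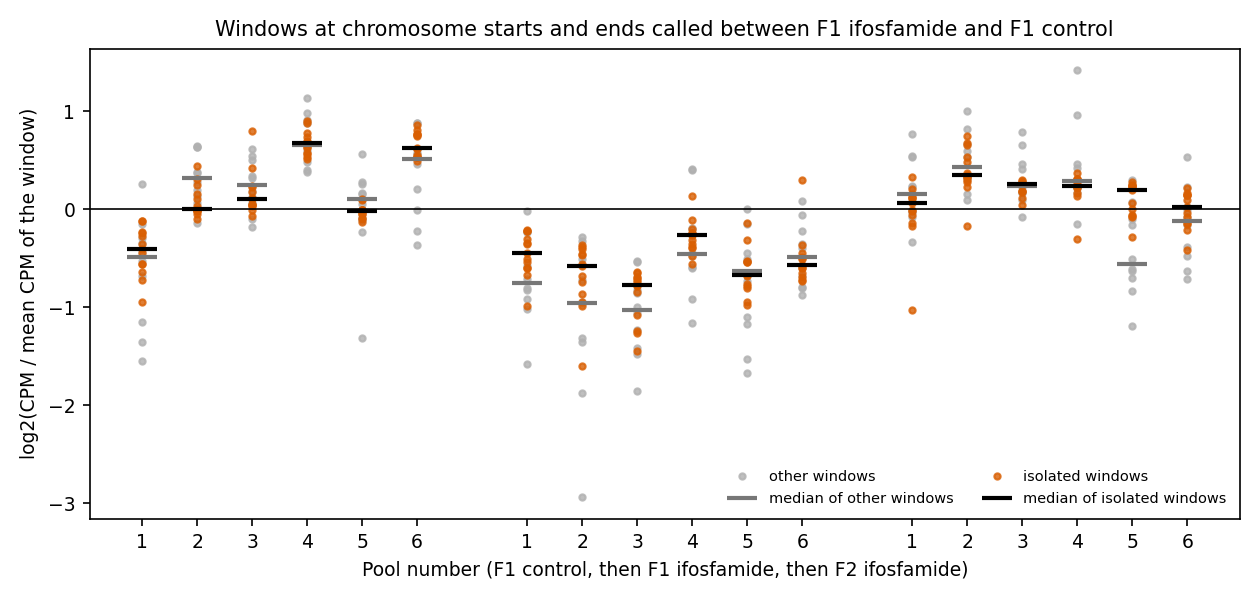
Log2 ratio of each pool's CPM to the mean CPM of the window over 18 pools, for the 23 start and end windows called between F1 ifosfamide and F1 control, split into 13 isolated windows (orange) and 10 others (grey), with medians as bars. Control pools 4 and 6 are high, control pool 1 is low among controls, and all 6 F1 ifosfamide medians are below 0.

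The isolated windows tested in F1, called or not, are given as a set by values without a test, because the set was defined with the calls in view. Their share is their summed CPM as a percent of that sum plus the CPM of all windows of the region that were not isolated. At ends this share was 1.63 to 2.85% in control pools (median 2.16%), 1.35 to 1.78% in F1 ifosfamide pools (median 1.56%) and 2.05 to 2.49% in F2 ifosfamide pools (median 2.26%). At starts it was 1.40 to 2.27% (median 1.83%), 1.34 to 1.68% (median 1.48%) and 1.72 to 2.03% (median 1.94%) in the same order. In the interior it was 0.472 to 0.626% (median 0.561%), 0.440 to 0.508% (median 0.472%) and 0.540 to 0.596% (median 0.575%). The median was lowest in F1 ifosfamide pools at all 3 places, and the control and F1 ifosfamide pools overlapped at each. The median log2 fold change of isolated windows in F1 was -0.15 at starts, -0.26 at ends and -0.13 in the interior. In F2 it was 0.05, 0.01 and 0.03.

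In F2, 8191 start and 8018 end windows were tested, and 0 and 4 were called by edgeR's quasi-likelihood test (0.0499% of ends), against 0.027% of all 919249 windows tested. At an unadjusted p below 0.05 there were 697 start windows (8.51%) and 739 end windows (9.22%), against 9.24% of all windows. At an unadjusted p below 1e-04 there were 2 start windows (0.0244%) and 8 end windows (0.0998%), against 0.0927% of all windows. The control and F2 ifosfamide pools did not overlap in 35 tested start windows (0.427%) and 42 tested end windows (0.524%), against 0.471% of all tested windows. DESeq2's Wald test called 0 and 1 (0.0125% of ends), against 0.00566% of all windows. The median log2 fold change was 0.02 over start windows and 0.01 over end windows. The authors' deposited table holds 0 and 5 windows (0.0601% of ends) at an adjusted p below 0.05, against 0.0216% of all its windows. These counts too moved with single pools. When control pools 1, 4 and 6 were left out in turn, starts had 1, 2 and 4 called windows. The counts were 11 and 1 when F2 ifosfamide pools 1 and 2 were. Ends had 1 and 1 on leaving out control pools 2 and 3, and 14, 1, 1, 2, 1 and 2 on leaving out F2 ifosfamide pools 1 to 6 in turn. The share called over all windows moved with them, from 0.00681% without control pool 2 to 0.152% without F2 ifosfamide pool 1, where starts stood at 0.129% and ends at 0.167%.

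Among the 4 called end windows 3 were higher and 1 was lower in F2 ifosfamide, against 0.016% and 0.011% of all tested windows, and none was isolated. On chromosome 8 at 131833001 to 131834000, control pools held 0.784 to 1.54 CPM (median 1.18), F2 ifosfamide pools 1.54 to 2.37 CPM (median 1.97) and F1 ifosfamide pools 0.912 to 1.28 CPM (median 1.02). The F2 and control pools did not overlap (log2 fold change 0.77, SE 0.15, adjusted p = 0.00899, edgeR). That call ended only without F2 ifosfamide pool 3 (0.71, adjusted p = 0.0719, in a range of 0.00111 to 0.0719 over its alternatives). On chromosome 10 at 110966001 to 110967000 the signal was 0.308 to 0.771 CPM in control pools (median 0.447) and 0.766 to 1.10 CPM in F2 ifosfamide pools (median 1.01), which met at 1 pool (log2 fold change 0.93, SE 0.20). On chromosome 13 at 112348001 to 112349000 it was 0.666 to 1.23 CPM in control pools (median 0.883) and 1.21 to 1.67 CPM in F2 ifosfamide pools (median 1.52), with a similar meeting of the groups (log2 fold change 0.73, SE 0.16). F1 ifosfamide pools there held 0.627 to 2.08 CPM (median 1.43), a log2 fold change of 0.71 that was not called (adjusted p = 0.139 by edgeR). On chromosome 5 at 172532001 to 172533000 control pools held 1.59 to 2.04 CPM (median 1.78) and F2 ifosfamide pools 0.839 to 1.40 CPM (median 1.15), without overlap (log2 fold change -0.65, SE 0.14, adjusted p = 0.0465, edgeR).

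The last 3 calls ended without several pools, and 2 of them also under other settings. On chromosome 10 it ended when control pools 1, 2, 3 or 6 (0.92, 0.88, 0.88 and 0.84) were left out, or F2 ifosfamide pools 2, 3 and 5 (0.91, 0.93 and 0.90). On chromosome 13 it ended without control pools 2 to 5 (0.64, 0.73, 0.69 and 0.72) and F2 ifosfamide pools 2 to 6 (0.74, 0.72, 0.70, 0.70 and 0.73). On chromosome 5 it ended without control pools 1, 2, 3 and 5 (-0.67, -0.62, -0.61 and -0.69) and F2 ifosfamide pools 2 to 6 (-0.64, -0.64, -0.67, -0.65 and -0.58). With windows per read as a covariate the calls on chromosomes 13 (0.70) and 5 (-0.63) ended, as did that on chromosome 13 with a minimum count of 30 (0.72) and that on chromosome 5 without a filter (-0.65). The direction was kept in each.

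With no called start window in F2, the 3 with the lowest p were on chromosomes 16, 11 and 6. At 1612001 to 1613000 on chromosome 16, control pools held 2.16 to 4.47 CPM (median 3.31) and F2 ifosfamide pools 3.42 to 6.02 CPM (median 5.40), a log2 fold change of 0.56 (SE 0.13, adjusted p = 0.0555, edgeR). At 1288001 to 1289000 on chromosome 11 the log2 fold change was -0.84 (SE 0.20, adjusted p = 0.0822, edgeR), and the pools overlapped in both windows. At 803001 to 804000 on chromosome 6, control pools held 0.745 to 1.12 CPM (median 0.801) and F2 ifosfamide pools 0.321 to 0.744 CPM (median 0.453), a log2 fold change of -0.80 (SE 0.20, adjusted p = 0.116, edgeR) with no overlap. Leaving out 1 pool brought a call in each. On chromosome 16 this was so without control pools 4 and 6 (0.63 and 0.66) and F2 ifosfamide pools 1 and 2 (0.63 and 0.64), and also with a replicate block (0.56) and without a filter (0.57). On chromosome 11 it was so without control pools 1 and 6 (-0.96 and -0.89) and F2 ifosfamide pool 1 (-0.95), and on chromosome 6 without F2 ifosfamide pool 1 (adjusted p = 0.0209 by edgeR).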

How the data were processed

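Sperm DNA pools were profiled by MeDIP-seq, and 18 of the 34 libraries in the labels were used; the other 16 were not analysed here. The tools named in the submitters' processing notes are edgeR, SAMtools, Bowtie2, Trimmomatic and FastQC, and the build is Rnor_6.0, with versions and settings not given in the sources used here. Counts of reads in 1 kb windows, not normalized, were deposited by the authors. The RPKM values deposited beside them, per the file headers, gave each library's number of reads and thus windows per read. The authors' deposited log2 fold changes are control over ifosfamide and were turned around, and the authors' deposited adjusted p-values were set beside the fit made here. All 6 control columns are shared by both tables.

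CPM is a window's count scaled to the total of all window counts of its library, without TMM. Starts, ends and interior were compared per library as log2 ratios of mean CPM and as differences in the percent of windows with 0 counts. Exact sign-flip tests were used within the control pools and exact two-sided permutation tests between groups, with Benjamini-Hochberg adjustment over 6, 8 and 64 tests. Windows were fitted with edgeR 4.0.16 in R 4.3.3 (TMM normalization, filterByExpr with a minimum count of 10, quasi-likelihood test without covariates on 12 pools), with adjustment over all windows tested. The SE given for a window is the absolute log2 fold change divided by the square root of the F statistic of that test. The fit draws a window's spread toward that of other windows, with 79.3 prior degrees of freedom in F1 and 136.5 in F2. The residual degrees of freedom were 10. Where a window's own pools vary more than that, its SE and p can be smaller than those pools alone would give. DESeq2 1.42.0 was an alternative, and the tests were tested on simulated data. Other alternatives were size factors, filters, tip lengths of 1 and 4 Mb, thinning, a replicate block, windows per read and leaving out each pool.

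Named were, in each comparison, the 5 called windows with the lowest p per direction at starts and at ends (with none called, the 3 lowest p), the 3 highest and 2 lowest starts and ends, the 3 highest windows at each side, and the 2 tip shifts with the lowest p. The members, lists and tests were chosen with earlier results of these data known. The number of counts limits precision, and 0 counts do not show absence of methylation.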

Additional observations from a re-analysis of the deposited data

Results flagged for a closer look

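In 7 of 126 groups of 6 pools checked, the highest or lowest pool stood apart by Dixon's 95% criterion for the gap to its neighbour; chance flags about 1 in 20 groups. F1 control pool 5 had a log2 ratio of start to end signal of 0.088, against 0.029 to 0.051 in the other control pools. At 472001 on chromosome 15, F2 ifosfamide pool 1 held 7.74 CPM, against 10.1 to 11.3 in the others. At 803001 on chromosome 6, F1 control pool 3 held 1.12 CPM, against 0.745 to 0.817. At the end of chromosome 3, F2 ifosfamide pool 6 had a log2 ratio to the interior of -0.10, against -0.13 to -0.12. F1 ifosfamide pool 5 stood apart at the end of chromosome 5, with 0.48 against 0.30 to 0.34, and at the end of chromosome 16, with -0.77 against -0.69 to -0.66. At the end of chromosome 14, F1 control pool 4 had -0.55, against -0.59 to -0.58, the tip with the lowest p in F1.

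The log2 ratio of end to interior signal was 0.029 higher in F2 ifosfamide than in F1 ifosfamide pools (exact permutation p = 0.0021645, adjusted p = 0.00866 over 4 tests, 6 of 6 F2 pools above all F1 pools). This test was added after the values were seen, its adjustment covers only the tests added with it, and it was not repeated under the alternatives. The SD of this ratio was 0.0054 in F2 and 0.011 in F1 ifosfamide pools, whereas the excess of empty windows at ends had an SD of 0.356 and 0.162 percentage points. F2 ifosfamide pools mix 8 to 9 males and F1 pools 3 to 4, and an effect of pool size on the SD was not tested.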

How the results depend on the processing

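With a 4 Mb limit the start to end ratio of control pools turned to -0.11, the F2 shift of starts to -0.00078, that of ends to -0.0045 and the F2 difference in empty end windows to 0.0056. The F2 shift of starts turned to -0.0048 with a 1 Mb limit, and the F2 difference in empty end windows to 0.11 after thinning. Leaving out 1 pool gave, in control pools, -0.27 to -0.26 (starts) and -0.32 to -0.30 (ends) on the log2 scale and 0.039 to 0.051 for start to end, and 8.20 to 8.39, 4.22 to 4.38 and 3.96 to 4.02 percentage points of empty windows for starts, ends and starts minus ends. These 6 lost the threshold only because 5 pools cannot give a p below 0.0625. The F1 shift of ends ran from -0.033 to -0.022, the F1 difference in empty end windows from -0.57 to -0.42 and the F2 shift of ends from -0.0042 to 0.0070. Called windows ran from 2 to 24 (F1 starts), 4 to 40 (F1 ends), 0 to 11 (F2 starts) and 1 to 14 (F2 ends). The share called over all windows ran from 0.0131% to 0.178% in F1 and from 0.00681% to 0.152% in F2.

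F1 starts had 5 called windows with a minimum count of 30 and 5 with a replicate block; F1 ends had 5 and 9, and 9 and 26 with 1 and 4 Mb limits. With a minimum count of 30 fewer windows were tested, 2117 at starts and 1787 at ends in F1, and the share called was 0.236% and 0.280%, against 0.0881% of all windows. With the block 0.0533% of tested start windows and 0.0979% of tested end windows were called in F1. Over all windows the share was 0.0364% in F1 and 0.0673% in F2. F1 ends stood at 0.224% and 0.110% with the 1 and 4 Mb limits, against 0.0584% of all windows. F2 starts had 1 without a filter (0.00346%), 1 with a replicate block (0.0122%) and 2 with a 4 Mb limit (0.0108%). F2 ends had 1 with DESeq2, 2 with a minimum count of 30 (0.143%) and 6 with the block (0.0748%). With 1 and 4 Mb limits they had 0 and 9 (0.0432%). Over all windows in F2 the share was 0.0121% without a filter and 0.0331% with a minimum count of 30. With the 1 and 4 Mb limits it stayed at 0.027%. Deviations of same-numbered pools correlated at -0.13 to -0.0093 in F1 and at -0.013 to 0.064 in F2. In 10 of 12 checks a pool matched another number best. Pools 1 and 4 of the F2 comparison matched their own number best. Whether replicate numbers pair the pools was not tested beyond these checks. Of the values of single named or called windows under the alternatives, 377 stayed on their side of the threshold, 161 lost it and 10 passed it, and 0 reversed. Windows with few counts had no adjusted p with DESeq2 or a minimum count of 30 in 15 cases. Depth limits windows: only 29.3% of start and 28.7% of end windows were tested in F1. The cause of these changes was not tested.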
